A study of Mus musculus with 24 samples.

Results

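The SR splicing factor genes Srsf1, Srsf2, Srsf3 and Srsf5 were followed on arrays of mouse embryos 1 h after heat shock. A probe was taken where the platform annotation gave it exactly 1 gene symbol and that symbol was 1 of these 4. This gave 4 of 6970 genes and 8 of 15360 probes. Slide type 1 held 3 probes for Srsf3 and 2 for Srsf2 among its 7680, and slide type 2 held 1 each for Srsf5, Srsf2 and Srsf1. A further probe of slide type 2 carries both Mettl23 and Srsf2 and was not counted as a member.

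The embryos were held in culture at 43 °C for 15 min, put back at 37 °C and collected 1 h later, and control embryos stayed at 37 °C. The sources used here give no strain, stage or age, and whole embryos hold many cell types. In bulk RNA of this kind, fewer cells of a type and less RNA per cell cannot be told apart. Total RNA of both groups was hybridised together on 24 arrays with 2 channels, from 3 numbered treatments, on 2 slide types with different probes. Each treatment had 4 arrays per slide type, with heat-shocked RNA in channel 1 on 2 of them and in channel 2 on the other 2. In each channel order, 1 of the 2 arrays had a suffix in its slide code whose meaning is not stated.

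SR proteins hold RNA recognition motifs followed by a domain rich in arginine and serine. They bind exonic enhancers in pre-mRNA, recruit the splicing machinery to nearby splice sites, and accompany the mRNA in later steps such as export and translation. Kinases of the SRPK and CLK families phosphorylate the arginine and serine domain, and protein phosphatase 1 removes the phosphates. Many SR genes hold exons with early stop codons whose inclusion sends the transcript to nonsense-mediated decay, so that the transcript level does not give the protein level. Heat shock is known to slow splicing in cultured mammalian cells, where dephosphorylated Srsf10 acts as a repressor.

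The promoter windows of all 4 genes are shown because the probes of these genes lay on a common side of the arrays. They are RefSeq sequences of GRCm38.p6, 300 bases long, from 250 bases before to 50 after a transcription start, written 5′ to 3′ on the gene's strand. For Srsf1, Srsf2 and Srsf5 this start is inside the annotated span of the gene, for Srsf5 close to its edge. The windows lie at chr12:80945249-80945548 (plus strand) for Srsf5, chr17:29032410-29032709 (plus strand) for Srsf3, chr11:116853045-116853344 (minus strand) for Srsf2 and chr11:88047123-88047422 (plus strand) for Srsf1. Capitals mark TGACG, the core of the cyclic AMP response element (CRE), on either strand.
Srsf5: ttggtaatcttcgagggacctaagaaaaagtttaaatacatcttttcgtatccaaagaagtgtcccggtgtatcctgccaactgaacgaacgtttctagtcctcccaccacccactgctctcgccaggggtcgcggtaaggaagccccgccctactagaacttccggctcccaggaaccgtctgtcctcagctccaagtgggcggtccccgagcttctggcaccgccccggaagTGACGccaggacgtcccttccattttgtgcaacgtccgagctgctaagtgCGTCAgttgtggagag
Srsf3: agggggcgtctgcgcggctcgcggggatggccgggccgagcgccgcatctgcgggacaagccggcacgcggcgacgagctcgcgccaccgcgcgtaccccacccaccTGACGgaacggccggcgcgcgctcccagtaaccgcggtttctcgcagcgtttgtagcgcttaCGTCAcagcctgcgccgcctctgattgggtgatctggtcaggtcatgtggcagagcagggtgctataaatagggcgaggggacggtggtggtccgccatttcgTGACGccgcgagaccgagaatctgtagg
Srsf2: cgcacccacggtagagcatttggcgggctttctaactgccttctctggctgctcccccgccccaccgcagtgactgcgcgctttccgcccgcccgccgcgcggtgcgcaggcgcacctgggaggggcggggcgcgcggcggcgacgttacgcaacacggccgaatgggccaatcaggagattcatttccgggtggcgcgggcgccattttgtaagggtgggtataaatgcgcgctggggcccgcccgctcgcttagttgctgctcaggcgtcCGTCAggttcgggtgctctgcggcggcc
Srsf1: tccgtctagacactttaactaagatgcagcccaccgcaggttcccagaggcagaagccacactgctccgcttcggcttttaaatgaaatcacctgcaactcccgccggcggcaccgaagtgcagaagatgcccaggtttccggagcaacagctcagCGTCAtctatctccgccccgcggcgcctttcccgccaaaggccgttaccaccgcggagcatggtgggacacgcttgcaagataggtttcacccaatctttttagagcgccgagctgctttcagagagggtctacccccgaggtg

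The element bound by heat shock factor was searched as 2 units (GAANNTTC or TTCNNGAA) and as 3 units, the same words followed by NNGAA or NNTTC in turn. The 3-unit form was in 0 of the 4 windows and in 0.603% of 32851 such mouse windows, and the 2-unit form was in 0 of 4 and in 15.1%. The CRE core TGACG was in all 4 windows, once in Srsf1 and Srsf2, 3 times in Srsf3 and 2 times in Srsf5, and in 20.8% of all windows. The full CRE, TGACGTCA, which contains the core, was in none of the 4 and in 1.79% of all. The GC box GGGCGG was found 3 times in Srsf5, 5 times in Srsf2, 1 time in Srsf1 and not in Srsf3, and 35.7% of all windows held it. CCAAT was in Srsf3, Srsf2 and Srsf1 (37.4% of all windows), TATAAA in Srsf3 and Srsf2 (13.6%), the NRF1 word (GCGCA, any base, GCGC) in Srsf2 (4.6%) and CACGTG in none of the 4 (7.15%). In all, 9 words were searched on both strands. Each match is a stretch of letters and not a binding site, and a word that was not found says only that its letters are not in these windows.

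The values are the authors' log ratios. Here each array was centred on its median, the ratio was read as channel 1 over channel 2, and the sign was turned where heat-shocked RNA was in channel 2. By this convention a negative value means less signal from heat-shocked embryos, but no source names the numerator, so the labels do not settle the direction. By the same convention, all called probes of the heat shock and early response genes given below were positive. Some arrays of slide type 2 that had heat-shocked RNA in channel 1 correlated below 0 with each other over all probes (lowest r = −0.34). These arrays share a channel order, so this describes their spread and does not bear on the numerator. If the ratio ran the other way, every sign given here would turn, ranks from the lowest value would become ranks from the highest, and the shares of probes on the negative and positive sides would change places. The base of the logarithm is not stated either, so folds are given for base 2 and for natural log: 1 unit is 2-fold or 2.72-fold. The 3 treatments are the replicates. No label says that they used separate litters, so p-values do not reach beyond these treatments. limma also draws the variance of each probe toward that of other probes. Its p-values and intervals therefore do not rest on the spread of a probe's own 3 treatment values alone.

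All 8 probes had a mean on the negative side, and 7 of them passed limma's test at an adjusted p of 0.05. These were 4 of the 5 probes of slide type 1 and all 3 of slide type 2. Of all probes on slide type 1, 5.09% were called negative and 11% positive. These shares were 24.4% and 28.9% for slide type 2, so a call by itself sets a probe much less apart there. Of 6 comparator genes picked as heat shock or early response genes, 5 had called probes, all on the opposite side of 0, which holds whichever channel was the numerator. Hsph1, a large chaperone of the Hsp110 family, averaged 2.25 ± 0.30 and 2.32 ± 0.73 on its 2 probes of slide type 1 (SD, n = 3). Hspb1, a small heat shock protein, averaged 2.23 ± 0.05 on slide type 2 (SD, n = 3). The chaperone Hsp90aa1 ran from 0.90 to 1.31 on 7 probes of slide type 1 and was at 1.14 ± 0.48 on slide type 2. The cochaperone Dnajb1 (0.89 and 0.46) and Jun, an early response transcription factor (1.97 ± 0.33), were also called positive, while none of the 6 probes of Hspa8, largely a constitutive chaperone, was called by limma (−0.13 to 0.29, with 3 at an unadjusted p under 0.05).

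**Figure D1:**
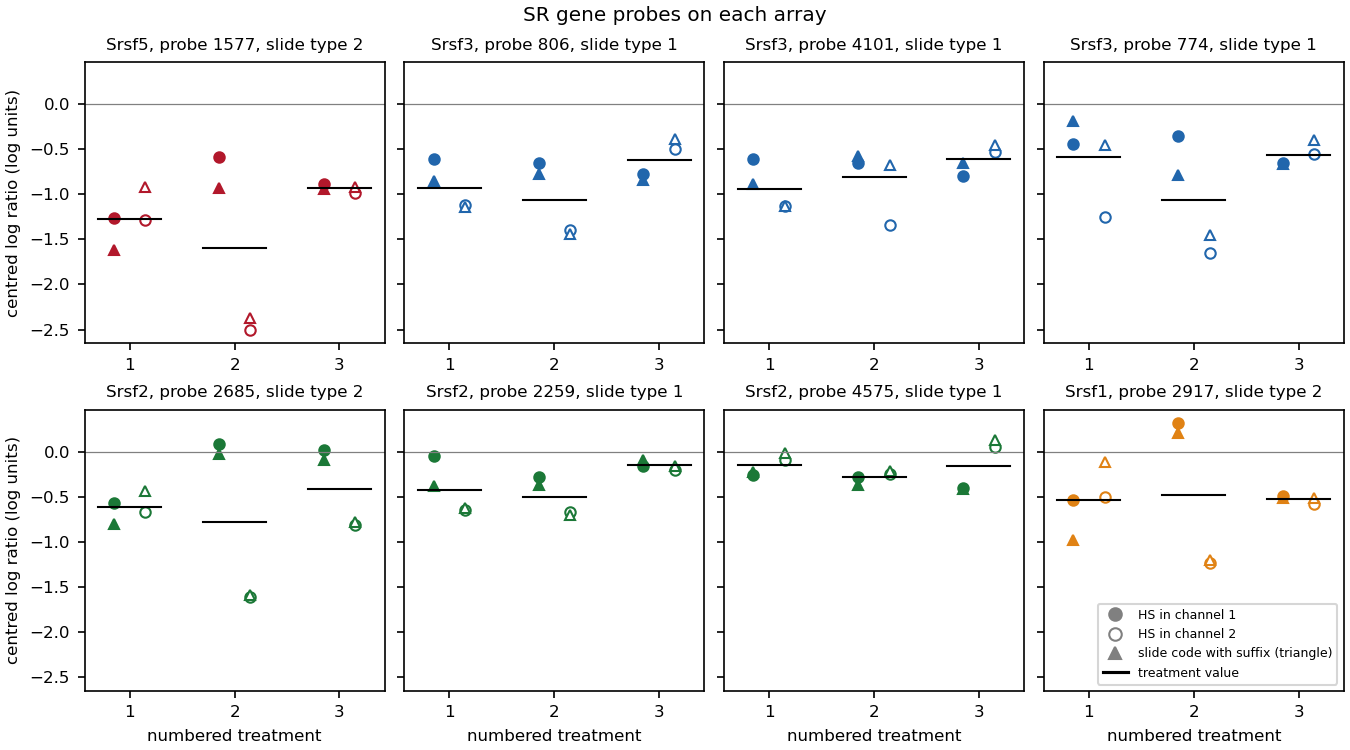
Each panel shows 1 probe, with the numbered treatment on the x axis and the centred log ratio of each array on the y axis (log units). Filled symbols have heat-shocked RNA in channel 1, open symbols in channel 2, triangles mark slide codes with the suffix, and black lines are treatment values. Srsf5 and the 3 Srsf3 probes are below 0 on all 12 arrays, while Srsf2 (2685) and Srsf1 reach above 0 with heat-shocked RNA in channel 1.

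Srsf5 had the value farthest from 0 of the 8 probes. Its product shuttles between nucleus and cytoplasm, and in the rat the gene is known as one induced by insulin in liver cells. The single Srsf5 probe (1577, slide type 2) gave −1.27 in treatment 1, −1.60 in treatment 2 and −0.94 in treatment 3. Its mean was −1.27 ± 0.33 (SD, n = 3), or 1.27 with the sign turned, with limma adjusted p = 3.92e-06. The 95% interval from limma was −1.49 to −1.05. It leaves out the values of treatments 2 and 3, because its variance is drawn toward that of other probes. The mean is 2.41-fold in base 2 or 3.56-fold in natural log. Among the 7680 probes of its slide type it ranked 2 from the lowest, behind a probe that carries both Rabepk and Hspa5 (−1.45). By treatment its rank was 4, 1 and 11.

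The array values of Srsf5 were all negative, with a lowest of −2.51, a median of −0.97 and a highest of −0.59. In treatment 1, Srsf5 read −1.27 and −1.62 when heat-shocked RNA was in channel 1, and −1.28 and −0.92 when it was in channel 2. Treatment 2 gave −0.59 and −0.93 in the first order and −2.51 and −2.37 in the second, and treatment 3 gave −0.89 and −0.94, then −0.99 and −0.92. The 2 arrays of treatment 2 with heat-shocked RNA in channel 2 were therefore far below all other Srsf5 values, and the orders did not overlap in that treatment. The channel orders averaged −1.04 ± 0.36 and −1.50 ± 0.82 (SD, n = 3 each), and their difference of 0.46 (95% interval −0.41 to 1.33) did not pass limma's test (adjusted p = 0.693). Srsf5 was also called from either order alone. With channel 1 only, it was 1 of 13 negative calls among the 7680 probes.

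Srsf3 encodes a small SR protein known for its part in mRNA export and in the choice of polyadenylation sites, and it can drive splicing of its own early stop exon. Its 3 probes on slide type 1 carry different clone accessions and differed little. Probe 806 averaged −0.87 ± 0.23 (SD, n = 3; 95% interval −1.05 to −0.70; limma adjusted p = 2.57e-06), with −0.93, −1.07 and −0.62 in treatments 1, 2 and 3. Probe 4101 averaged −0.79 ± 0.17 (−0.94 to −0.63; adjusted p = 2.57e-06), with −0.94, −0.81 and −0.61. Probe 774 averaged −0.74 ± 0.28 (−0.93 to −0.55; adjusted p = 3.21e-05), with −0.59, −1.06 and −0.57. With the sign turned the means are 0.87, 0.79 and 0.74. The folds ran from 1.67 to 1.83 in base 2, or from 2.09 to 2.39 in natural log.

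Treatment 3 had the smallest size on every Srsf3 probe. Neighbouring Srsf3 probes did not differ beyond their spread. The difference within treatments was 0.09 ± 0.14 between probes 4101 and 806, and 0.05 ± 0.30 between probes 774 and 4101 (SD, n = 3). All 3 probes were among the 14 lowest of their slide type, at ranks 4, 12 and 14. The probes of lower rank than 806 belonged to Hspa5, the chaperone of the endoplasmic reticulum (−1.17 and −0.93), and to Skp1, a subunit of ubiquitin ligases (−0.96). A pseudogene, Srsf3-ps, is annotated on chromosome 11 at 98624368 to 98625662 (GRCm38.p6), whereas Srsf3 itself spans 29032660 to 29043372 on chromosome 17. Whether its RNA binds these probes is uncertain.

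All 12 arrays were negative for each Srsf3 probe. The lowest, median and highest array were −1.44, −0.81 and −0.39 for probe 806, −1.34, −0.67 and −0.45 for probe 4101, and −1.65, −0.60 and −0.19 for probe 774. The lowest value of each probe again came from treatment 2 with heat-shocked RNA in channel 2. By channel order, probe 806 averaged −0.75 ± 0.05 (heat-shocked RNA in channel 1) and −0.998 ± 0.504 (channel 2; SD, n = 3 each). For probe 4101 these were −0.70 ± 0.07 and −0.88 ± 0.34, and for probe 774 −0.51 ± 0.18 and −0.96 ± 0.54. The order differences of 0.25, 0.18 and 0.45 did not pass limma's test (adjusted p = 0.338, 0.383 and 0.114), although the 95% interval of probe 774 (0.02 to 0.87, unadjusted p = 0.0415) left out 0. Over all 7680 probes, 1705 order differences passed on slide type 1 and 1 on slide type 2. Without treatment 3 they were 0.56, 0.39 and 0.76 and passed it (adjusted p = 0.0307, 0.0389 and 0.0244).

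Srsf2, an SR protein that stays in the nucleus and helps to define exons, had probes on both slide types, and they were spread widely. Probe 2685 of slide type 2 gave −0.62, −0.78 and −0.42 in treatments 1, 2 and 3. Its mean was −0.61 ± 0.18 (SD, n = 3; 95% interval −0.76 to −0.45; limma adjusted p = 9.56e-05), or 0.61 with the sign turned, at rank 61 of 7680. This is 1.52-fold in base 2 or 1.83-fold in natural log. Probe 2259 of slide type 1 gave −0.42, −0.50 and −0.15, a mean of −0.36 ± 0.18 (−0.52 to −0.20; adjusted p = 0.00359) at rank 91. Probe 4575 gave −0.15, −0.28 and −0.16, a mean of −0.19 ± 0.07 (−0.33 to −0.06) at rank 464, and missed the threshold (adjusted p = 0.0549, unadjusted p = 0.00912). With the sign turned the last 2 means are 0.36 and 0.19. Within treatments probe 4575 lay 0.17 ± 0.15 above probe 2259 (SD, n = 3), and in treatment 3 there was no gap between them (−0.01).

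The call of Srsf2 on slide type 1 depended on the centring. Without centring, probe 2259 averaged −0.057 (adjusted p = 0.742) and probe 4575 turned to 0.11 (adjusted p = 0.530), while the median of all probes moved to 0.29. Relative to that median both stayed on the negative side. Over the arrays, probe 2259 ran from −0.71 to −0.05 with a median of −0.32, all 12 below 0, and probe 4575 from −0.42 to 0.13 with a median of −0.23, 10 of 12 below 0. By channel order, probe 2259 averaged −0.22 ± 0.10 (heat-shocked RNA in channel 1) and −0.50 ± 0.28 (channel 2; SD, n = 3 each), a difference of 0.28 (limma adjusted p = 0.128, and 0.39 with adjusted p = 0.0383 without treatment 3). Probe 4575 leaned the other way, at −0.33 ± 0.09 and −0.063 ± 0.160, a difference of −0.26 (adjusted p = 0.156). Its 2 positive arrays were those of treatment 3 with heat-shocked RNA in channel 2.

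Probe 2685 of Srsf2 was uneven between channel orders. When channel 1 held the heat-shocked RNA, the arrays read −0.57 and −0.80 in treatment 1, 0.08 and −0.02 in treatment 2, and 0.02 and −0.09 in treatment 3. When channel 2 held it, they read −0.67 and −0.44 in treatment 1, −1.61 and −1.59 in treatment 2, and −0.81 and −0.78 in treatment 3. In treatments 2 and 3 the orders did not overlap, and in channel 1 the values were near 0. The means were −0.23 ± 0.39 and −0.98 ± 0.55 (SD, n = 3 each), a difference of 0.75 (95% interval −0.11 to 1.62; limma adjusted p = 0.532). Without treatment 1 the difference was 1.19 (adjusted p = 0.0393). From channel 1 alone the probe was not called (adjusted p = 0.892). The probe that carries both Mettl23 and Srsf2 lay on the other side, at 0.26 ± 0.05 (SD, n = 3; adjusted p = 0.00476). These genes are neighbours on chromosome 11, 156 bases apart in GRCm38.p6, and the annotation does not say which transcript that probe reads.

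Srsf1, an SR protein with known parts in splice site choice, translation and nonsense-mediated decay, had the mean nearest to 0 on slide type 2 and the least spread between treatments. Probe 2917 gave −0.53, −0.48 and −0.52 in treatments 1, 2 and 3, a mean of −0.51 ± 0.03 (SD, n = 3; 95% interval −0.63 to −0.39; limma adjusted p = 5.60e-05), or 0.51 with the sign turned. It ranked 131 of 7680, and the fold was 1.42 in base 2 or 1.67 in natural log. The small SD hides opposite values within treatment 2. There the arrays were 0.32 and 0.20 when heat-shocked RNA was in channel 1, and −1.24 and −1.20 when it was in channel 2. In treatment 1 they were −0.53 and −0.98, and −0.50 and −0.11 in these orders, and in treatment 3 −0.50 and −0.51, and −0.58 and −0.51. Treatments 1 and 3 were thus negative in both orders, and treatment 2 only on average.

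The orders of Srsf1 averaged −0.33 ± 0.53 and −0.69 ± 0.47 (SD, n = 3 each), a difference of 0.36 (95% interval −0.51 to 1.22; limma adjusted p = 0.756). Taken alone, neither order called Srsf1 (adjusted p = 0.786 with channel 1 and 0.0559 with channel 2). The spread of the channel component (the difference between orders divided by 2, as an SD over all probes) was 0.608 in treatment 2 of slide type 2, against 0.225 and 0.282 in treatments 1 and 3. Averaging the orders with equal weight removes a dye effect that is the same in both, and what made treatment 2 differ was not tested.

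**Figure D2:**
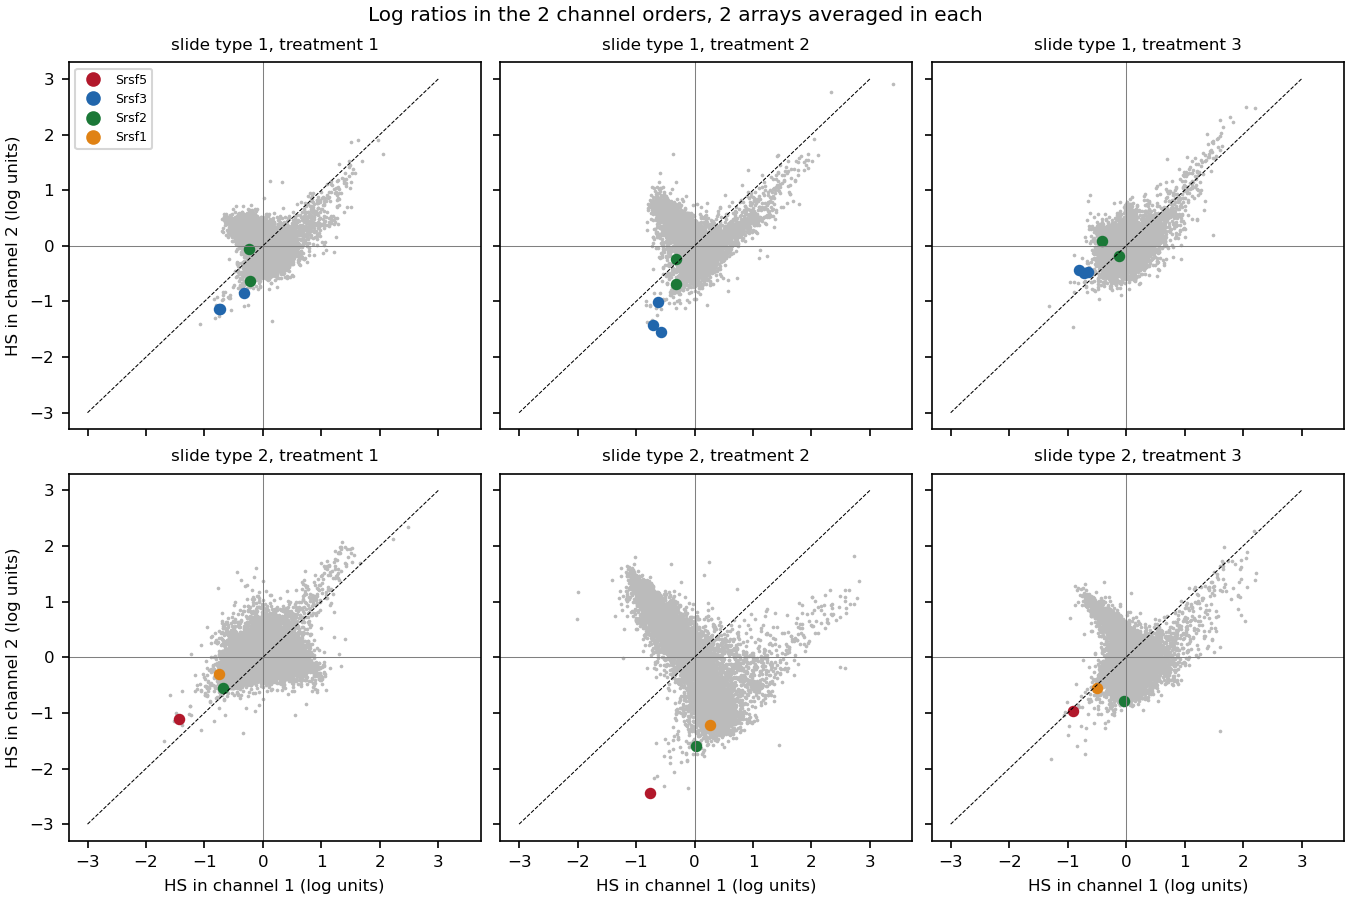
Each panel plots every probe of 1 slide type and treatment, with the centred log ratio (log units) averaged over the 2 arrays of each channel order, on the x axis for heat-shocked RNA in channel 1 and on the y axis for channel 2. Grey points are all 7680 probes, coloured points the SR gene probes, and the dashed line marks equal values. On slide type 2 the cloud of treatment 2 runs across the dashed line, and Srsf5 is in the lower left quadrant in all 3 treatments.

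Set in order on slide type 2, Srsf5 lay below Srsf2, and Srsf2 below Srsf1. Srsf2 minus Srsf5 was 0.65, 0.82 and 0.52 in treatments 1, 2 and 3, or 0.66 ± 0.15 (SD, n = 3), so the gap was larger than its spread. Srsf1 minus Srsf2 was 0.10 ± 0.21 and within its spread. On slide type 1, Srsf2 probe 2259 minus the nearest Srsf3 probe was 0.38 ± 0.20, with the same sign in all 3 treatments. These are differences between log ratios of different probes and say nothing of the genes' transcript levels, which a ratio does not hold.

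**Figure D3:**
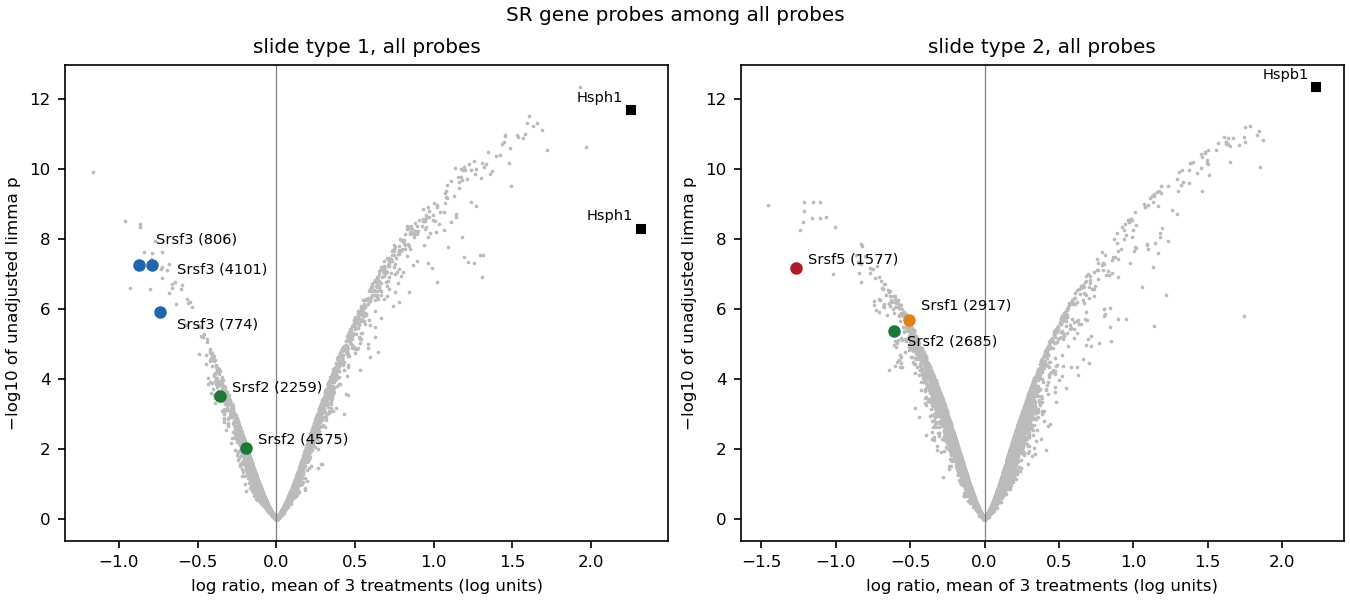
The mean log ratio of the 3 treatments (x axis, log units) is plotted against −log10 of the unadjusted limma p (y axis) for all 7680 probes of each slide type. Coloured points are the SR gene probes, labelled with gene and probe number, and black squares are Hsph1 and Hspb1. Srsf5 and the 3 Srsf3 probes lie at the left edge of the clouds, Srsf1 and the Srsf2 probes inside the left arm.

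Other SR genes gave a mixed picture. On slide type 1, 1 of 6 probes was called negative and none positive, with a median of 0.05, against −0.01 over all probes. The probe called was Srsf10 (−0.33 ± 0.06, SD, n = 3; limma adjusted p = 0.0021), the splicing repressor of heat-shocked cells named above. Srsf12, Tra2b, Tra2a and the 2 Srsf11 probes lay between −0.07 and 0.14 and were not called. On slide type 2, 4 of 7 probes were called negative and 2 positive, with a median of −0.23, against 0.03 over all probes. Srsf10 was again negative there (−0.37 ± 0.06, limma adjusted p = 0.000627), as was the mean of Tra2b (−0.23 ± 0.07, adjusted p = 0.00912), a relative of SR proteins that binds purine-rich enhancers. Tra2b averaged 0.16 when channel 1 held the heat-shocked RNA and −0.62 when channel 2 held it, so no direction is given for it. Srsf10 was negative in both orders there (−0.12 and −0.62).

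Probes of 1 gene could disagree in this group. Srsf6 was at −0.56 ± 0.17 on probe 4064 (SD, n = 3; limma adjusted p = 0.000131) and at 0.31 ± 0.11 on probe 4080 (adjusted p = 0.003), although both carry the same clone accession. Probe 4080 itself averaged −0.27 when channel 1 held the heat-shocked RNA and 0.88 when channel 2 held it. Srsf4 was at −0.28 ± 0.17 on probe 2617 (adjusted p = 0.00791) and at 0.16 ± 0.08 on probe 6219 (adjusted p = 0.0433). No direction is therefore given for Srsf4 and Srsf6. Of the 4 member genes, Srsf2 and Srsf3 had several probes, all with negative means, and Srsf1 and Srsf5 rest on 1 probe each.

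**Figure D4:**
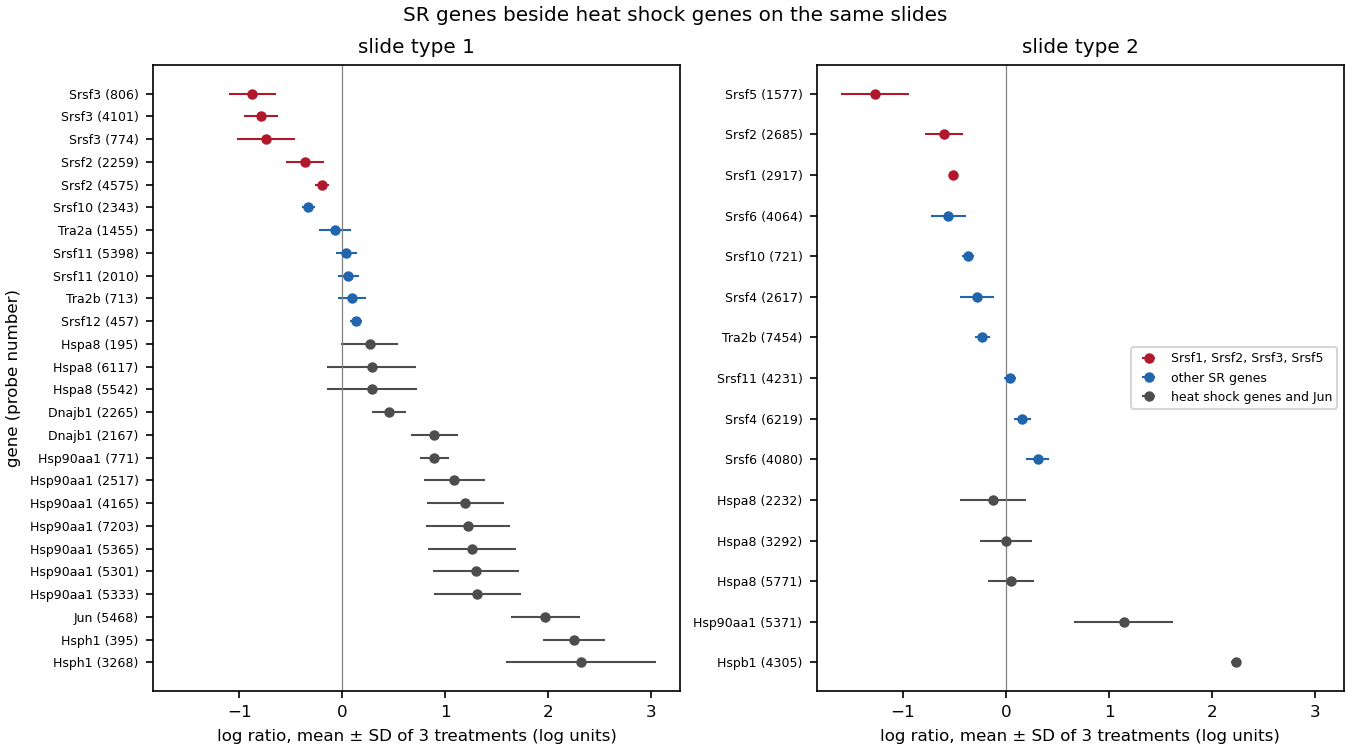
Points are mean log ratios and bars are the SD of 3 treatments (x axis, log units), with 1 line per probe (y axis) and a panel per slide type. Red marks Srsf1, Srsf2, Srsf3 and Srsf5, blue other SR genes, and dark grey heat shock genes and Jun. The red points are all left of 0 and the called heat shock genes all right of it, with the blue points between −0.56 and 0.31.

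Proteins that act with SR proteins were counted in 4 groups. SR-related coactivators, nuclear proteins that bridge SR proteins and the spliceosome, had 0 of 17 probes called negative and 2 positive on slide type 1. The positive probes were 1 of 2 for Luc7l2, a partner of the U1 particle (1.14 ± 0.22 against −0.10 on its other probe), and 1 of 3 for Son, a scaffold of nuclear speckles (0.24 ± 0.06). Of 19 such probes on slide type 2, 11 were negative and 1 positive. Son was at −0.42 ± 0.05 there, Rbm39 at −0.32 ± 0.05, Srek1 at −0.32 ± 0.12 and Scaf11 at −0.30 ± 0.13 (SD, n = 3 each). These SDs are of values averaged over channel orders. With heat-shocked RNA in channel 1, Rbm39 was at −0.017. The other Scaf11 probe (0.19), Luc7l3 (0.25) and the negative Thrap3 probe (0.05), also called negative, were above 0 in that order. In channel 2 these probes were at −0.63, −0.65, −0.65 and −0.36. The remaining negative probes were negative in both orders. Thrap3 had 1 positive probe (0.30), 1 negative (−0.15) and 1 not called (−0.05).

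Kinases and phosphatases of SR proteins had no positive call. Negative calls were 2 of 12 probes for slide type 1 and 6 of 9 for slide type 2. Those of slide type 1 were Akt1, a kinase of the insulin pathway that can phosphorylate SR proteins (−0.41 ± 0.04), and 1 of 2 probes of Srpk1, the cytoplasmic SR protein kinase (−0.29 ± 0.06 against −0.11). The 6 of slide type 2 were for Ppp1cb (−0.42 ± 0.03) and both probes of Ppp1cc (−0.31 and −0.24), which encode catalytic subunits of protein phosphatase 1, its nuclear inhibitor Ppp1r8 (−0.36 ± 0.10), the spliceosome kinase Prpf4b (−0.22 ± 0.05) and Clk2 (−0.20 ± 0.07). Clk1 (0.09 and 0.06), Clk3 (−0.03), Clk4 (−0.02) and Srpk2 (0.07 and 0.06) were not called on the slides that carry them.

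Splice site partners had 0 of 4 probes called by limma on slide type 1, with 2 at an unadjusted p under 0.05 (Puf60 at −0.19 and U2af1l4 at −0.18). Of 4 on slide type 2, 1 was negative, U2af1l4 (−0.37 ± 0.14), a relative of the small U2AF subunit, and 1 positive, for Snrpc (0.48 ± 0.01) of the U1 particle, whose other probe was at −0.10. Import and export partners had 3 of 7 probes called negative on slide type 1, 2 of 3 for the importin Tnpo1 (−0.38 and −0.24) and 1 for the export adaptor Chtop (−0.22). Both probes of Tnpo3, the other importin of this group, were not called there (−0.03 and −0.12, limma adjusted p = 0.831 and 0.322). Of the 6 import and export probes on slide type 2, 4 were negative. These were the export helicase Ddx39b (−0.56 ± 0.08), Tnpo1 (−0.50 ± 0.07) and both probes of Nxt1 (−0.17 and −0.18), a cofactor of the export receptor. Nxt1 probe 6985 averaged 0.09 when channel 1 held the heat-shocked RNA and −0.45 when channel 2 held it. The other negative probes of this group were negative in both orders. Rbm8a, a core member of the exon junction complex, was positive (0.48 ± 0.03).

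Over the other SR genes and these 4 groups together, 6 of 46 probes were called negative on slide type 1 (13%, against 5.09% of all probes) and 26 of 45 on slide type 2 (57.8%, against 24.4%). Positive calls were 2 of 46 on slide type 1, against 11% of all probes, and 5 of 45 on slide type 2, against 28.9%. All list probes carry a symbol, while the shares of all probes include those without a symbol. Centring on probes with 1 symbol moved values up, as for Srsf5 from −1.27 to −1.19, so such probes lay lower than all probes together. It left 2.88% and 15.7% of all probes called negative. In either direction it called 8 of the 46 and 24 of the 45 list probes, against 1217 and 4488 of all 7680 probes on slide types 1 and 2. How much of the list shares the lower values of probes with a symbol account for was not tested. Their most negative probe on slide type 2, Ddx39b at −0.56, lay above Srsf5 and Srsf2 probe 2685 and below Srsf1, as did Srsf6 probe 4064. Akt1 (−0.41) and Tnpo1 (−0.38) of slide type 1 lay above the 3 Srsf3 probes and below both Srsf2 probes. Calls on slide type 2 moved with the settings for these genes as for all probes. From channel 1 alone, limma called none of the 45 (2 at an unadjusted p under 0.05) and 226 of all 7680 probes, and from channel 2 alone 3 of the 45 and 700 of all. Without centring, 4 of the 45 and 557 of all were called in either direction, and with equal array spread 10 and 1144, against 31 and 4096 in the setting used here. The 8 list calls of slide type 1 fell to 4 without centring and to 5 without treatment 2.

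The genes whose pattern over the 12 arrays was most like a member's were found by Pearson r on the centred and turned values, from 1 probe of each member gene and slide type, the one with the smallest p. For Srsf5 these were Pcolce (0.99), Prdx4 (0.98) and Pes1 (0.98), for Srsf2 on slide type 2 Hp1bp3 (0.996), Grwd1 (0.995) and Csnk1g2 (0.995), and for Srsf1 Hbb-y, Rbbp4 and Psme4 (0.99 each). On slide type 1 the values were lower: Kpnb1 (0.96), Mtrex (0.95) and Prpf8 (0.94) for Srsf3 probe 4101, and Ddx3x, Srrm1 and Prmt1 (0.96 each) for Srsf2 probe 2259. The 12 arrays share 3 treatments and 2 channel orders, so these values describe the arrays and carry no p. Of the probes with 1 symbol, 576 of 4934 on slide type 2 correlated above 0.9 with Srsf5, 1019 with Srsf2 and 1025 with Srsf1. The counts on slide type 1 were 30 of 4746 for Srsf3 probe 4101 and 75 of 4747 for Srsf2 probe 2259. Among the members, r was 0.90 for Srsf5 with Srsf2, 0.85 for Srsf5 with Srsf1 and 0.84 for Srsf2 with Srsf1. Srsf3 probe 4101 correlated at 0.50 and 0.74 with the other 2 Srsf3 probes, which correlated at 0.78, and Srsf2 probe 2259 at −0.16 with probe 4575. The likenesses given for slide type 1 are therefore those of single probes and not of the genes.

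Lists of genes picked as tissue markers were counted in the same tests. On slide type 2, 6 of 7 collagen probes (Col1a1, Col1a2 and Col3a1, made by mesenchyme) were called negative, with a median of −0.47 and a range of −0.60 to 0.08, as were 2 of 7 erythroid probes (both Hbb-y, −0.15 each) and 1 of 1 trophoblast probe (Krt18, −0.19). With heat-shocked RNA in channel 1, the called Hbb-y probes (0.05 and 0.14) and the Col1a2 probes (0.04 and 0.01) averaged above 0. The other called probes of these lists on slide type 2 were negative in both orders. On slide type 1, 1 of 2 neural probes (Tubb3, −0.21) and 1 of 2 endothelial probes (Esam, −0.27) were called negative, 0 of 4 of yolk sac endoderm and 0 of 5 of trophoblast were called, and no marker of heart muscle was measured on either slide type. Of the trophoblast list only the keratins Krt8 and Krt18 were measured, so its counts read these genes and not trophoblast as such. Log ratios hold no levels, so summed marker levels and the labelled tissue could not be checked. The part of cell types in the SR gene values was not tested.

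**Figure D5:**
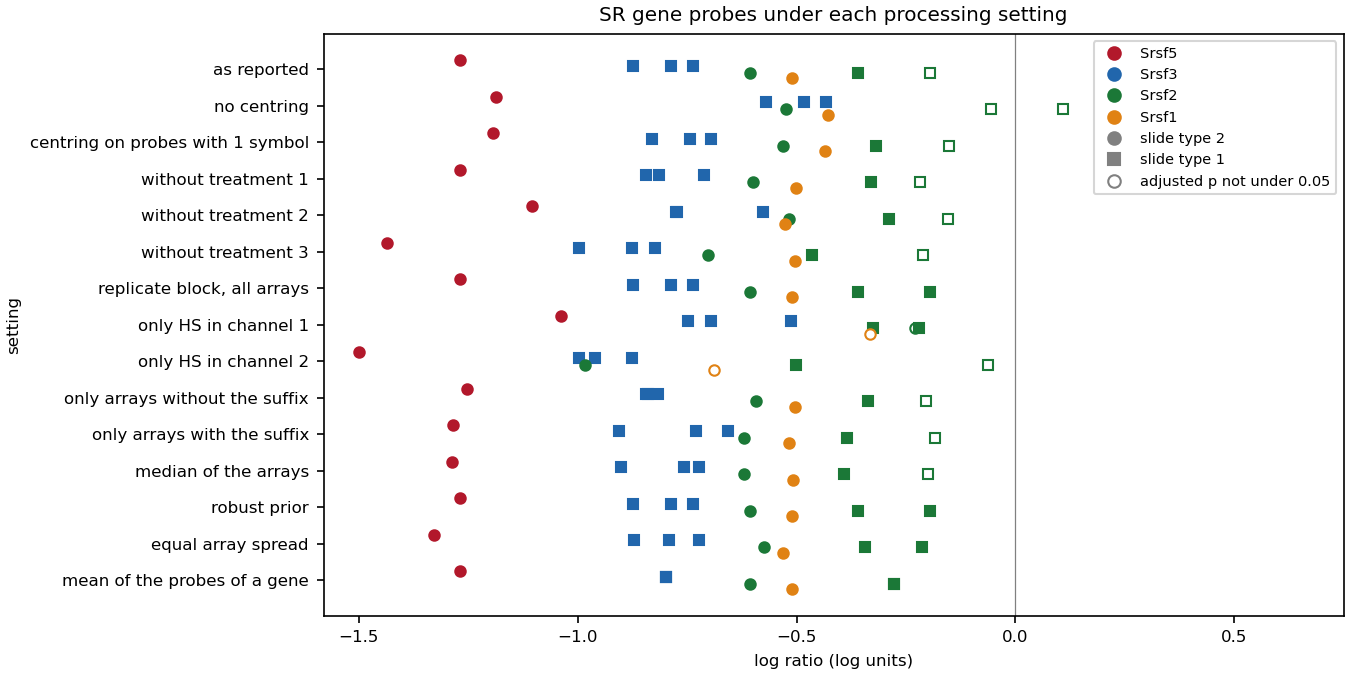
The log ratio of each SR gene probe (x axis, log units) is shown for the setting used in the text and for each alternative (y axis). Circles are probes of slide type 2, squares of slide type 1, and open symbols have an adjusted p not under 0.05. Srsf5 and the Srsf3 probes are filled and left of −0.4 in every setting shown, and 1 Srsf2 probe crosses 0 without centring.

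Across the settings tried, the means of Srsf5 ran from −1.50 to −1.04 and were called in each. The 3 Srsf3 probes ran from −0.998 to −0.43 and were also called in each. Probe 774 came nearest to the threshold, at a limma adjusted p of 0.0489 without centring. In that setting probe 4101 was at 0.0242 and Srsf1 at 0.0480. Without centring, the 3 Srsf3 probes were among 14 negative calls on slide type 1 (0.182% of probes), and Srsf5, Srsf2 and Srsf1 were among 135 on slide type 2 (1.76%). Leaving out the centring moved every probe mean of a slide type by the same amount, so the ranks stayed as given above. The smaller counts of negative calls therefore do not set the members apart a further time. That setting moved the share of negative among all calls to 1.14% on slide type 1, against 31.7% with centring, and to 24.2% on slide type 2, against 45.8%. Centring on probes with 1 symbol gave 18.2% and 26.8%, and called the same 4 and 3 member probes.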

How the data were processed

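Values are the authors' log ratios from 2 deposited tables of 7680 probes and 12 arrays each, treated as a score. How they were normalized, the log base and the numerator: not given in the sources used here. There were 0 missing values and 0 columns left unmapped. Deposited array medians ran from −1.51 to 0.65. No intensities were used, so dim spots could not be set apart, and the number of treatments limits the precision.

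Arrays were median-centred, turned, and averaged within and then over channel orders, giving 3 treatments per slide type. limma 3.58.1 in R 4.3.3 (lmFit, eBayes on an intercept, also for order differences) was adjusted by Benjamini-Hochberg over 7680 probes, with a threshold of 0.05 and 95% intervals. Correlations of treatments over all probes were 0.70 to 0.80 on slide type 1 and 0.82 to 0.90 on slide type 2. Gene symbols came from the platform annotation (4749 and 4935 probes with 1 symbol, 227 and 275 with several, 2704 and 2470 with none). On simulated data with 100 changes each of 0.5 and 1 units, 64 and 96 were recovered on slide type 1 and 71 and 94 on slide type 2, and 0 and 1 of 7480 unchanged probes were called. The simulated probes had a dye effect that was the same in all treatments, and no noise of single arrays. Averaging the orders removes such an effect, so these counts do not cover a channel component that differs between treatments. They give no rate of false calls for the real arrays.

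Members and gene lists were chosen with earlier results of these data known, and list counts support nothing by themselves. Genes named were all members, up to 6 called genes per list with the smallest p, 6 heat shock or early response genes, and the 3 probes most correlated with each member gene; probes not called, disagreeing probes and lowest-ranked neighbours were added after their values were seen. Alternatives were no centring, centring on probes with 1 symbol, leaving out each treatment, the treatment as a replicate block, 1 channel order, arrays with or without the suffix, the median of arrays, a robust prior, equal array spread and gene means. Figures used matplotlib 3.10.9.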

Additional observations from a re-analysis of the deposited data

How the results depend on the processing

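Under the alternatives, 102 member values kept their sign and side of the threshold and 10 did not. This is not a count of independent checks. The replicate block and the robust prior left every member mean unchanged. The gene mean gave 1 value to all probes of a gene and left genes with a single probe as they were. Without centring, Srsf2 probe 2259 was −0.057 and probe 4575 was 0.11. Probe 4575 passed the threshold with the treatment as a replicate block (−0.19, adjusted p = 0.00512), with heat-shocked RNA in channel 1 only (−0.33), a robust prior (−0.19), equal array spread (−0.21) and the gene mean (−0.28). Heat-shocked RNA in channel 1 only lost Srsf2 probe 2685 (−0.23) and Srsf1 (−0.33), and channel 2 only lost Srsf1 (−0.69). The replicate block changed no other member's call. The correlation within a treatment that limma estimated for it was 0.067 on slide type 1 and −0.22 on slide type 2.

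Against 1235 probes called on slide type 1, channel 1 only gave 2402, channel 2 only 776 and arrays with the suffix 797. Against 4096 on slide type 2, no centring gave 557, channel 1 only 226, channel 2 only 700 and equal array spread 1144. Of the SR-related lists, 8 probes were called on slide type 1 (4 without centring, 5 with channel 2 only, 4 with the suffix) and 31 on slide type 2 (4 without centring, 0 with channel 1 only, 3 with channel 2 only, 10 with equal array spread).

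Without centring, the order differences (channel 1 minus channel 2) of Srsf3 probes 774, 806 and 4101 were 0.70, 0.50 and 0.43 and that of Srsf2 probe 2259 was 0.53, all past the threshold, and those of Srsf5, Srsf2 probe 2685 and Srsf1 were −0.84, −0.54 and −0.94. Probe 774 was at 0.67 without the suffix, and probe 4101 at −0.021 with equal array spread. Order differences under the median of arrays were not run.

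Leaving out each treatment in turn, called probes ranged from 881 to 1203 on slide type 1 and 2315 (without treatment 1) to 4920 on slide type 2, and list probes from 5 (without treatment 2) to 12 and 24 to 29. Member means ranged from −0.82 to −0.58 (774), −0.998 to −0.78 (806), −0.88 to −0.71 (4101), −0.46 to −0.29 (2259), −0.22 to −0.15 (4575), −1.44 to −1.10 (Srsf5), −0.70 to −0.52 (2685) and −0.53 to −0.50 (Srsf1), and no call changed. In these fits limma took much of each probe's variance from other probes, so unchanged calls are a weak check. Order differences ranged from 0.18 to 0.76 (774), 0.018 to 0.56 (806), 0.075 to 0.39 (4101), 0.21 to 0.39 (2259), −0.35 to −0.14 (4575), −0.15 to 0.86 (Srsf5), 0.32 to 1.19 (2685) and −0.20 to 0.76 (Srsf1). Without treatment 2, those of Srsf5 (−0.15) and Srsf1 (−0.20) turned sign. The cause of these changes was not tested. Detection near background could not be judged without intensities.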
